A study of Mus musculus with 4 samples.

Results

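Complement is a blood-borne cascade of proteins that marks particles for uptake and can lyse membranes. The 7 complement component genes *C1qa*, *C1qb*, *C1qc*, *C3*, *C4b*, *Cfb* and *Cfp* were taken by symbol from the 23995 gene symbols of a deposited RNA-seq table, and each was found once. The table covers sorted blood monocytes of 4 libraries, 1 for each of 2 genotypes and 2 subsets. RBP-J-deficient mice carried *Rbpj* fl/fl with *Lyz2* cre/cre, and control mice carried *Rbpj* +/+ with *Lyz2* cre/cre, so that both genotypes were homozygous for the Cre allele. The control libraries are titled WT in the deposited records and have the genotype label Lyz2-Cre. Cre was driven from the lysozyme 2 locus, which is active across the myeloid lineage. RBP-J is the DNA-binding mediator of canonical Notch signaling. The subsets were Ly6Chi monocytes, the classical cells, and Ly6Clo monocytes, the patrolling cells that arise from them. Mice of the study were 7 to 12 weeks old and matched for age and sex, and the number pooled into each library is not given in the sources used here.

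C1q, the recognition molecule of the classical pathway, is assembled from A, B and C chains encoded by *C1qa*, *C1qb* and *C1qc*, and binds antibody complexes and dying cells. *C4b* encodes C4, the next component that is cleaved. *C3* encodes the central component on which all pathways converge, *Cfb* encodes factor B, which forms the alternative pathway convertase with C3b, and *Cfp* encodes properdin, which stabilizes that convertase. The liver makes most circulating C3, C4 and factor B, whereas C1q and properdin come largely from myeloid cells. Tissue macrophages are a well-known source of C1q, and monocytes and neutrophils of properdin.

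The deleted gene itself was lower in both RBP-J-deficient libraries. *Rbpj* had 8.30 FPKM (fragments per kilobase of transcript and of 1000000 mapped fragments) in control and 2.43 in RBP-J-deficient Ly6Clo monocytes, and 14.4 and 2.85 in the Ly6Chi libraries. The FPKM values of a library summed to between 711555 and 885648, and 8985 to 9394 genes reached an FPKM of 1. The deposited values hold no read counts, so the depth is unknown and no interval is given. With 1 library in each group no difference has a replicate check and no test was made. In bulk samples such as these, fewer cells of a type and less RNA in each cell cannot be told apart. A value of 0 was not read as absence, because the beta-actin gene *Actb*, which all cells use, also had a listed value of 0 in RBP-J-deficient monocytes of either subset, beside 27260 FPKM in control Ly6Clo and 22795 in control Ly6Chi monocytes.

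Markers of the subsets are given here because they moved with the libraries compared. The 5 Ly6Chi monocyte markers summed to 74.4 FPKM in control Ly6Clo, 571 in RBP-J-deficient Ly6Clo, 3482 in control Ly6Chi and 2674 in RBP-J-deficient Ly6Chi monocytes. The 8 Ly6Clo monocyte markers summed to 3433, 1631, 493 and 837 in that order. In both Ly6Clo libraries the Ly6Chi marker sum was mostly *Ccr2*, which had 59.2, 474, 712 and 624 over the 4 libraries. The other Ly6Chi markers were also higher in RBP-J-deficient than in control Ly6Clo monocytes, with *Ly6c2* next in level, at 78.3 against 10.9. All 5 general monocyte markers, among them the growth factor receptor gene *Csf1r*, were expressed in every library. The B cell markers summed to 68.0, 102, 26.2 and 47.2 in the same order of libraries, mostly *Cd79b*, at 41.9, 100, 23.7 and 43.7. *Cd22* had 12.9 in control and 0.563 in RBP-J-deficient Ly6Clo monocytes, *Cd79a* 9.02 and 1.13, and *Ms4a1* 3.27 and 0.0603. *Pax5* was at 0 to 0.0560. Neutrophil markers, 10 of 11 of them found, summed to 238 and 163 in control and RBP-J-deficient Ly6Clo and to 1331 and 1045 in the Ly6Chi libraries, mostly *S100a8* and *S100a9*, which Ly6Chi monocytes also express. *Mpo* was listed at 0 in all 4. T and NK cell markers, 8 of 9 found, summed to at most 3.65, and the 6 dendritic cell markers to at most 15.1. The platelet and erythroid markers, 7 of 8 found, summed to 1697 in control and 396 in RBP-J-deficient Ly6Clo monocytes. In the control and RBP-J-deficient Ly6Chi libraries they summed to 697 and 667. *Hba-a2* had 1171 in control and 89.4 in RBP-J-deficient Ly6Clo monocytes, whereas *Hbb-bs* and *Ppbp* were higher in the RBP-J-deficient Ly6Clo library. The part of these markers in the results that follow was not tested.

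The start regions of *C1qb*, *C1qc* and *C3* are shown because *C1qb* and *C3* were at least 2-fold apart between the genotypes, in different subsets, whereas *C1qc*, a neighbour of *C1qb* whose product joins the same protein, was nearly level. RefSeq start sites on GRCm38.p6 were given for 4 of the 7 members, namely *C1qb*, *C1qc*, *C3* and *Cfp*. Each line gives the 250 bases before the start site in the direction of transcription, all from the minus strand. *C1qb* is read from chr4:136886201-136886450, *C1qc* from chr4:136892915-136893164 and *C3* from chr17:57228137-57228386. Capitals mark matches, on either strand, to the core letters of 3 factors of myeloid cells, namely GAGGAA for PU.1, TGCTGA for MAF factors and TTNNGNAA for C/EBP factors.
C1qb: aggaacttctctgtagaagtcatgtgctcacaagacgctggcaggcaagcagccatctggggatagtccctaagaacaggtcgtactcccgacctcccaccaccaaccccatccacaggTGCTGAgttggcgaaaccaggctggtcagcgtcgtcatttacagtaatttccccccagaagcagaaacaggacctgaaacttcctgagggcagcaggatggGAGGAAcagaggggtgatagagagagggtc
C1qc: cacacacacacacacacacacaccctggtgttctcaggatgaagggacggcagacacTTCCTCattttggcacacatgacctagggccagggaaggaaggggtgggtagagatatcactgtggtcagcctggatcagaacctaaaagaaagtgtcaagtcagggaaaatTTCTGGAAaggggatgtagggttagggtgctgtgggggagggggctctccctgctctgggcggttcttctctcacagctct
C3: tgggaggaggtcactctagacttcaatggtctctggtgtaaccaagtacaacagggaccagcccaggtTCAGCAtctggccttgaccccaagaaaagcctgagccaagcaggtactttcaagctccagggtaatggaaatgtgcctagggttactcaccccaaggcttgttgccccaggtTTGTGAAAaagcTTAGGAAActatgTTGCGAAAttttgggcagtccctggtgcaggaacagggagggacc

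The letters TGGGAA, the core bound by RBP-J, were in none of these 250-base windows nor in that of *Cfp*, on either strand, and 21.6% of the 32851 RefSeq promoter windows hold them. The *C1qb* window has a PU.1 core 30 bases before the start and a MAF core 131 bases before it. The *C1qc* window has a PU.1 core at 193 and a C/EBP match at 81 bases before the start. These distances are from the RefSeq start. The GENCODE span of *C1qc* reaches 136893065, inside this window, so part of the window lies within that annotated gene. The *C3* window has 1 MAF core, at 182 bases, and 4 C/EBP matches that begin 70, 58 and 45 bases before the start, the last of which matches on both strands. The *Cfp* window holds none of the 4 motifs. Of all windows 23.3% hold the PU.1 core, 16.1% the MAF core and 36.8% a C/EBP match. These matches describe the letters and are not evidence of binding.

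The 3 C1q genes lie side by side on the minus strand of chromosome 4 within 18675 bases (GRCm38, GENCODE release M21). *C1qb* spans 136880129 to 136886187, *C1qc* 136889804 to 136893065 and *C1qa* 136895917 to 136898803. The 3 genes had their highest listed values in 3 different libraries. With 1 library per group, these differences have no replicate check.

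*C1qb* was high in a single library. It had 4.08 FPKM in control Ly6Clo, 5.95 in RBP-J-deficient Ly6Clo, 19.4 in control Ly6Chi and 4.49 in RBP-J-deficient Ly6Chi monocytes. The control Ly6Chi library thus stood apart, and the other 3 lay within 2 FPKM of each other. *C1qb* was 4.31-fold lower in RBP-J-deficient than in control Ly6Chi monocytes, with a log2 ratio of (FPKM + 1) of -1.89, and 0.409% of the expressed genes had a lower ratio. In Ly6Clo monocytes the log2 ratio was 0.45.

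*C1qa* was highest in another library. It had 3.26 FPKM in control Ly6Clo monocytes and was listed at 0 in RBP-J-deficient Ly6Clo monocytes. The Ly6Chi libraries had 1.05 in the control and 1.50 in the RBP-J-deficient library, a log2 ratio of 0.28. Its highest value was therefore in the control Ly6Clo library, where *C1qb* had its lowest. FPKM times transcript length in kilobases served as a rough guide to signal. For *C1qa* that product was 67.6 times the library's 2nd percentile in control Ly6Clo and 25.5 times in control Ly6Chi monocytes. This percentile was taken over the detected genes with a single annotated transcript.

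*C1qc* varied least of the 3. It had 3.88 and 4.40 FPKM in control and RBP-J-deficient Ly6Clo monocytes and 5.63 and 6.32 in the Ly6Chi libraries. Its log2 ratios between the genotypes were 0.15 in Ly6Clo, which turned to -0.10 when FPKM was rescaled to a sum of 1000000 in each library (TPM), and 0.14 in Ly6Chi monocytes. On the log2 scale *C1qc* spanned 0.587 over the 4 libraries, against 2.09 for *C1qa*, with its value of 0 included, and a similar span for *C1qb*.

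Summed over the chains, C1q transcripts reached 11.2 FPKM in control Ly6Clo, 10.3 in RBP-J-deficient Ly6Clo, 26.0 in control Ly6Chi and 12.3 in RBP-J-deficient Ly6Chi monocytes. The RBP-J-deficient Ly6Clo sum counts *C1qa* at its listed 0, which was not read as absence. In control Ly6Clo monocytes the sum was spread over *C1qa*, *C1qb* and *C1qc* at 29.0%, 36.4% and 34.6%. In control Ly6Chi monocytes the shares were 4.05%, 74.3% and 21.6%, so that the higher sum was mostly *C1qb*. In RBP-J-deficient Ly6Chi monocytes *C1qc* held the largest share, at 51.4%.

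**Figure D1:**
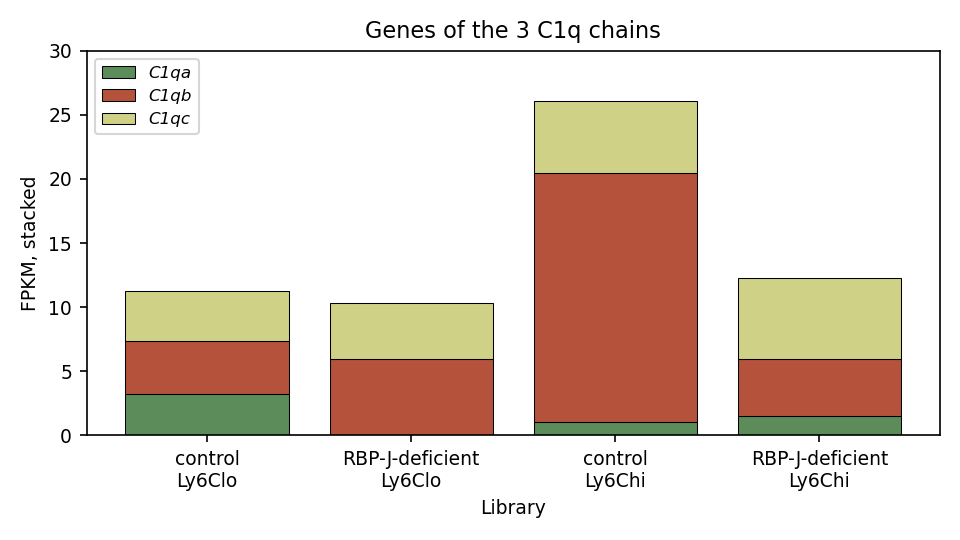
Stacked bars of the FPKM of *C1qa*, *C1qb* and *C1qc* in the 4 libraries, 1 library per bar and no error bars. The control Ly6Chi bar is the tallest, at 26.0 FPKM against 10.3 to 12.3 for the others, and 74.3% of it is *C1qb*. The RBP-J-deficient Ly6Clo bar counts *C1qa* at its listed 0.

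Factors and cells linked to C1q were looked at beside these values. *Spi1*, which encodes PU.1, had 903 and 211 FPKM in control and RBP-J-deficient Ly6Clo and 851 and 442 in the Ly6Chi libraries, lower in both RBP-J-deficient libraries. *Maf* lay between 1.04 and 2.74 and *Irf8* between 48.2 and 130. Of 12 tissue macrophage markers, *Vsig4*, *Timd4*, *Marco*, *Cd5l* and *Lyve1* were listed at 0 in all 4 libraries. The list summed to 171 in control Ly6Clo, 134 in RBP-J-deficient Ly6Clo, 127 in control Ly6Chi and 113 in RBP-J-deficient Ly6Chi monocytes, and *Adgre1*, the gene of F4/80, which monocytes also express, was its highest member in each, at 143, 91.7, 70.0 and 50.4. *Trem2*, a lipid-sensing receptor, had 7.16, 24.6, 47.0 and 45.4 in that order, and *Spic*, a factor of red pulp macrophages, had 19.9, 17.7, 6.38 and 15.5. *Mrc1* had 0.369, 0.0944, 2.07 and 0.717 in the same order of libraries, highest in control Ly6Chi monocytes, as *C1qb* was. *Cd163* and *Mertk* were lower in level than *Mrc1* and were also highest there. Their log2 ratios in Ly6Chi monocytes, RBP-J-deficient over control, were -0.41 and -0.18, beside -0.84 for *Mrc1*. *Folr2* went another way, with 0.431 in control Ly6Clo monocytes and a listed 0 elsewhere. The part of macrophage RNA in the C1q values was not tested.

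*C4b* (chromosome 17, 34728380 to 34743882, minus strand) was at or near 0 in every library. It was listed at 0 in control Ly6Clo monocytes and had 0.0413 FPKM in RBP-J-deficient Ly6Clo, 0.0331 in control Ly6Chi and 0.339 in RBP-J-deficient Ly6Chi monocytes. The near-identical copy *C4a* lies on the same chromosome at 34809092 to 34823464, and 35.2% of the 50-base stretches of the longest *C4b* transcript also occur in *C4a* transcripts. *C4a* had at most 0.0198 FPKM, so the levels of both copies were low whichever way shared reads were split. The other early genes of the classical pathway were close to this level. *C1ra*, a protease of the C1 complex, reached 1.81 FPKM in control Ly6Chi monocytes and 0.305 in RBP-J-deficient Ly6Chi monocytes, *C2* reached 0.313, and *C1s1* and *C1s2* were listed at 0 throughout.

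*C3* (chromosome 17, 57203970 to 57228136, minus strand) was the member with the highest genotype ratio in Ly6Clo monocytes. It had 18.5 FPKM in control Ly6Clo, 61.7 in RBP-J-deficient Ly6Clo, 67.8 in control Ly6Chi and 81.4 in RBP-J-deficient Ly6Chi monocytes. Control Ly6Clo monocytes were low, and the other 3 libraries lay close together. In Ly6Clo monocytes *C3* was 3.33-fold higher in RBP-J-deficient mice, a log2 ratio of (FPKM + 1) of 1.68, and 98.1% of the expressed genes had a lower ratio. In Ly6Chi monocytes it was 1.20-fold higher, with a log2 ratio of 0.26. In control mice *C3* was 3.66-fold higher in Ly6Chi than in Ly6Clo monocytes, and in RBP-J-deficient mice 1.32-fold.

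*Cfb* (chromosome 17, 34856374 to 34862518, minus strand) followed the subset. It had 3.40 FPKM in control Ly6Clo, 7.62 in RBP-J-deficient Ly6Clo, 35.6 in control Ly6Chi and 32.8 in RBP-J-deficient Ly6Chi monocytes. Both Ly6Chi libraries were above both Ly6Clo libraries, 10.5-fold in control mice and 4.30-fold after RBP-J loss. In Ly6Clo monocytes its FPKM was 2.24-fold higher in RBP-J-deficient mice, and its log2 ratio of (FPKM + 1) was 0.97, just short of 2-fold on that scale. With a pseudocount of 0.1 in place of 1 that ratio was 1.14. In Ly6Chi monocytes the log2 ratio was -0.12. The read-through gene *Gm20547* overlaps 6107 bases of *Cfb* on the same strand and extends into *C2*, and it was not used here, so reads of such a transcript could be counted in *Cfb*.

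*Cfp* (chromosome X, 20925454 to 20931555, minus strand) had the highest level of the members in 3 of the 4 libraries. It had 46.7 FPKM in control Ly6Clo, 37.9 in RBP-J-deficient Ly6Clo, 113 in control Ly6Chi and 84.7 in RBP-J-deficient Ly6Chi monocytes. Both Ly6Chi libraries were again above both Ly6Clo libraries, 2.42-fold in control mice and 2.23-fold after RBP-J loss. Between the genotypes its log2 ratio was -0.41 in Ly6Chi and -0.29 in Ly6Clo monocytes, the last of which turned to 0.07 after a trend with the GC content of transcripts was subtracted.

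**Figure D2:**
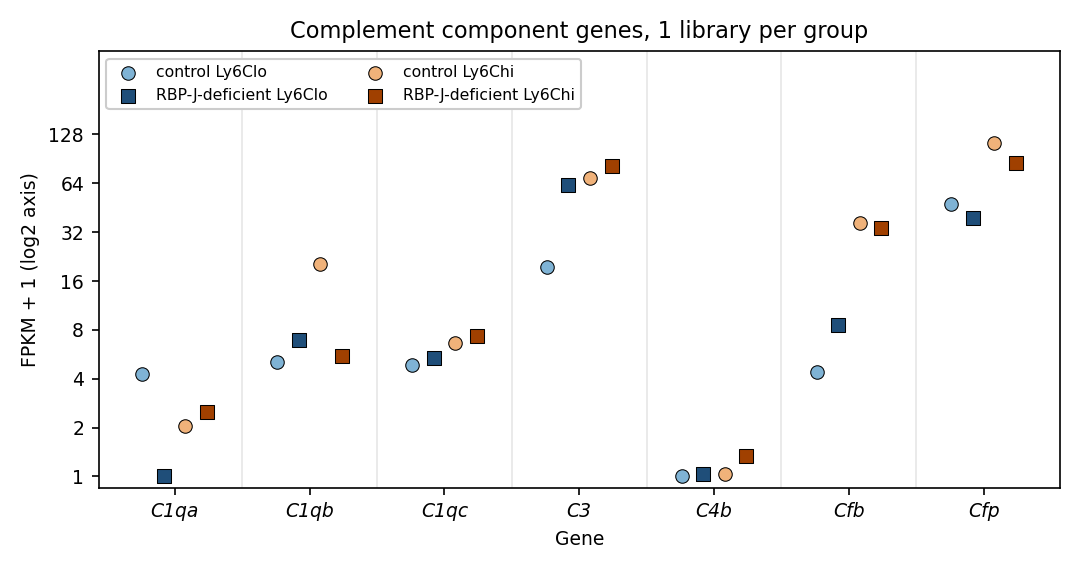
FPKM + 1 on a log2 axis for the 7 members, with circles for control, squares for RBP-J-deficient, blue for Ly6Clo and orange to brown for Ly6Chi, each point 1 library. *C3* is low in control Ly6Clo alone, *C1qb* is high in control Ly6Chi alone, *Cfb* and *Cfp* separate by subset, and *C4b* lies at or near 1, which is an FPKM of 0.

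By level, *Cfp* and *C3* came first in every library. In control Ly6Chi monocytes *Cfp*, at 113 FPKM, exceeded 89.9% of genes at or above 1 FPKM, *C3* 84.3%, *Cfb* 75.1% and *C1qb* 63.5%. In control Ly6Clo monocytes these values were 79.0%, 62.1%, 22.7% and 26.8%. The order of the first 2 changed once, with *C3* above *Cfp* in RBP-J-deficient Ly6Clo monocytes, at 61.7 against 37.9. With single libraries, neighbours in this order have no spread to be set against. *C1qb*, *C1qc* and *Cfb* lay between 3.40 and 4.08 FPKM in control Ly6Clo monocytes.

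The effect of RBP-J loss on the members was then set beside all expressed genes, meaning those with an FPKM of at least 1 in either library compared. All members except *C4b* met this. In Ly6Clo monocytes 1 member, *C3*, was at least 2-fold higher on (FPKM + 1), where 9.51% of 9660 genes were. *C1qa* counted as at least 2-fold lower through its value of 0, where 11.7% of genes were, and it was not counted once members listed at 0 were left out. In Ly6Chi monocytes no member was at least 2-fold higher, where 2.76% of 9771 genes were, and 1 member, *C1qb*, was at least 2-fold lower, where 4.78% were. Counts of 0 or 1 of 7 are close to these shares and single out no direction for the members as a list. The study's own fold thresholds, 5.7 and 0.2, were passed by 0 members in either subset, and by 0.290% and 0.714% of genes in Ly6Clo and 0.164% each way in Ly6Chi monocytes.

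The median log2 ratio over the members, RBP-J-deficient over control, was 0.15 in Ly6Clo and 0.14 in Ly6Chi monocytes, beside 0.04 and 0.01 over all expressed genes. Without the members listed at 0 the Ly6Clo median was 0.45.

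More members were at least 2-fold apart between the subsets. In control mice *C1qb*, *C3*, *Cfb* and *Cfp*, 4 of the 7, were at least 2-fold lower in Ly6Clo than in Ly6Chi monocytes, where 8.07% of 9839 expressed genes were. *C1qa* was at least 2-fold higher, with a log2 ratio of 1.05, where 5.42% were. In RBP-J-deficient mice *Cfb* and *Cfp* were at least 2-fold lower in Ly6Clo monocytes, and *C1qa* counted with them through its value of 0, where 11.1% of 9733 genes were. After the GC correction *Cfp* went from -1.14 to -0.84, short of 2-fold, and 1 member, *Cfb*, was left. No member was at least 2-fold higher there, where 8.85% were. At the study's thresholds *Cfb* alone was lower in control Ly6Clo monocytes, where 1.31% of genes were lower and 0.772% higher, and 0 members passed in RBP-J-deficient mice, where 0.863% and 0.319% did. The median of the members, Ly6Clo over Ly6Chi, was -1.26 in control mice and -0.44 after RBP-J loss, beside 0.00 and 0.03 over the expressed genes.

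**Figure D3:**
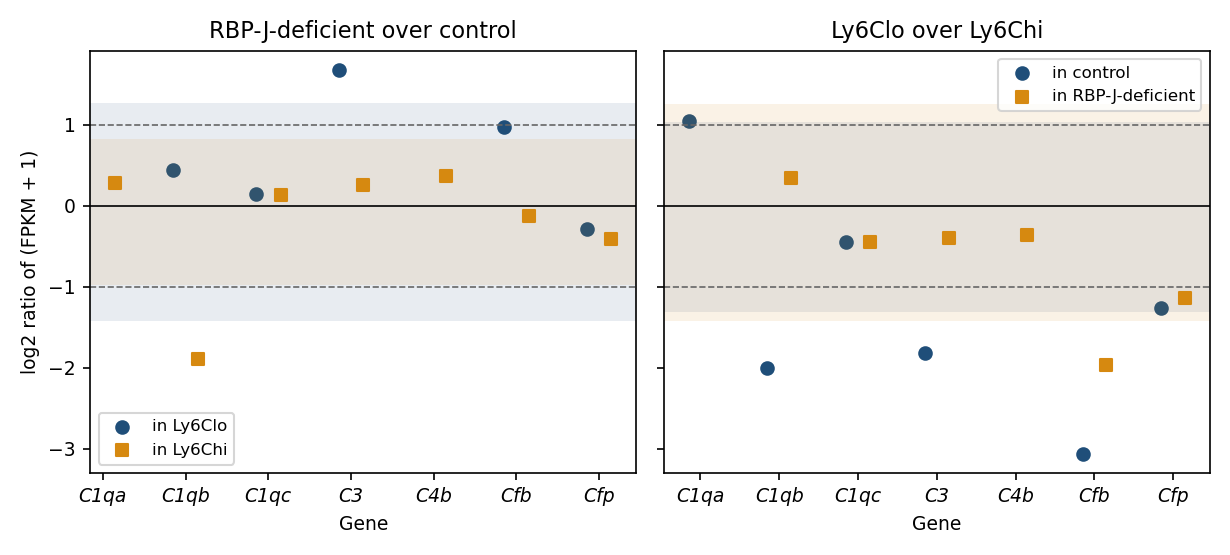
Log2 ratios of (FPKM + 1) of the members, left RBP-J-deficient over control in each subset and right Ly6Clo over Ly6Chi in each genotype, 1 library against 1, with members listed at 0 in either library left out. Shading spans the 5th to the 95th percentile of the expressed genes and dashed lines mark 2-fold. *C3* at 1.68 in Ly6Clo and *C1qb* at -1.89 in Ly6Chi monocytes lie outside the shading on the left, and *Cfb* lies below it in both genotypes on the right.

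The 4 members lower in control Ly6Clo than in control Ly6Chi monocytes did not shift together in RBP-J-deficient Ly6Clo monocytes. Measured in FPKM along the way from control Ly6Clo to control Ly6Chi, *C3* stood at 87.7%, *Cfb* at 13.1%, *C1qb* at 12.2% and *Cfp* at -13.2%, which is on the far side of control Ly6Clo. Among the Ly6Chi markers, *Ly6c2* stood at 3.36%, *Vcan* at 3.27%, *F13a1* below both and the chemokine receptor gene *Ccr2* at 63.5%. In FPKM *C3* was thus farther along than any of these 4 markers. These shares use control Ly6Clo as their start, the library that is also the reference of the genotype comparison. They also depend on the scale. On log2(FPKM + 1), RBP-J-deficient over control Ly6Clo was 1.68 for *C3*, 2.98 for *Ccr2*, 2.86 for *F13a1*, 2.73 for *Ly6c2* and 0.40 for *Vcan*. Control Ly6Clo over control Ly6Chi was -1.82, -3.57, -8.22, -7.40 and -3.43 in that order.

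The rest of the complement system was taken from a list of 43 other genes, all of which were in the table. Only 15 reached an FPKM of 1 in any library, and 19 were listed at 0 in all 4. Among these 19 were *Cfd*, the gene of factor D, which cleaves factor B, and *C6*, *C7*, *C8a*, *C8b* and *C9* of the membrane attack complex, whose proteins the liver supplies to plasma. *Hc*, which encodes C5, was at 0.170 or less and *C8g* at 0.339 or less. Of the lectin pathway, *Fcnb*, the gene of ficolin B, was listed at 0 in control Ly6Clo and had 0.256 FPKM in RBP-J-deficient Ly6Clo, 9.65 in control Ly6Chi and 10.1 in RBP-J-deficient Ly6Chi monocytes. It followed the subset, as *Cfb* did.

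Several regulators that dampen complement were expressed. *Cr1l*, which encodes the membrane inhibitor Crry, had 133 FPKM in control Ly6Clo, 190 in RBP-J-deficient Ly6Clo, 79.8 in control Ly6Chi and 96.1 in RBP-J-deficient Ly6Chi monocytes, a higher level than any of the 7 members in both Ly6Clo libraries. *Clu*, the gene of clusterin, which blocks the terminal complex, had 14.2 and 11.3 in the Ly6Clo and 50.9 and 40.1 in the Ly6Chi libraries, in control and RBP-J-deficient mice. *Cd55*, the gene of decay-accelerating factor, had 0.660 and 2.86 in the Ly6Clo libraries, a log2 ratio of 1.22, and 0.417 and 0.678 in the Ly6Chi libraries.

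The receptors for complement fragments differed among themselves. *C5ar2*, a second receptor for C5a, had 5.25 and 14.9 FPKM in control and RBP-J-deficient Ly6Clo monocytes and 3.45 and 7.28 in the Ly6Chi libraries, higher in both RBP-J-deficient libraries, with log2 ratios of 1.35 and 0.90. *C3ar1*, the C3a receptor gene, had 0.107 and 1.67 in Ly6Clo and 0.715 and 0.732 in Ly6Chi monocytes. *Itgax*, which encodes the alpha chain of complement receptor 4, had 33.7 and 3.10 in the Ly6Clo libraries, whereas *Itgam*, the alpha chain of complement receptor 3, had 57.7 and 51.5. *C5ar1*, the main C5a receptor gene, had 56.4 and 68.2 in the Ly6Clo libraries and less in the Ly6Chi libraries, and *Cd93* had 9.31 and 6.93 in the Ly6Chi libraries against 0.578 and 0.404 in Ly6Clo monocytes.

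Of the 15 expressed genes of this list, *Cd55*, *C3ar1* and *C5ar2* were at least 2-fold higher and *Itgax* at least 2-fold lower in RBP-J-deficient Ly6Clo monocytes, where 8.97% and 11.1% of the 10240 genes reaching 1 FPKM in any library were higher and lower. The median log2 ratio was 0.27, beside 0.02 over those genes. In Ly6Chi monocytes 0 were at least 2-fold higher, where 2.64% of genes were, and 1, *C1ra*, was lower, where 4.56% were, with a median of -0.02 beside 0.00. Between the subsets of control mice, *C5ar1* and *Itgax* were at least 2-fold higher and *C1ra*, *Fcnb*, *Clu* and *Cd93* at least 2-fold lower in Ly6Clo monocytes, where 5.21% and 7.75% of genes were. In RBP-J-deficient mice *Cd55* was higher and *Fcnb*, *Clu* and *Cd93* were lower, where 8.41% and 10.6% of genes were. With 15 genes, each count rests on 4 or fewer.

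**Figure D4:**
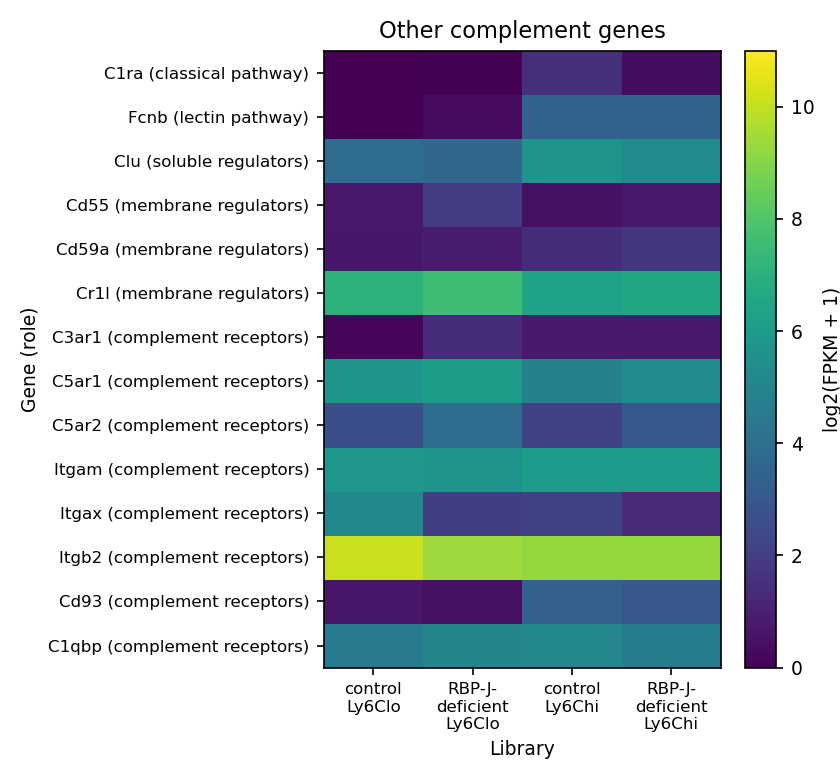
Log2(FPKM + 1), as colour, of 14 other complement genes that reached an FPKM of 1 in any library, in the 4 libraries. *Itgb2*, *Cr1l*, *Itgam* and *C5ar1* are bright in every column, *Fcnb*, *Clu* and *Cd93* are brighter in both Ly6Chi columns, and *Itgax* is brightest in control Ly6Clo.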

How the data were processed

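Per the file headers and the methods, the authors deposited FPKM for every gene and pair of libraries, from paired-end RNA libraries of sorted blood monocytes (Illumina HiSeq2500). The submitters' processing notes name CASAVA 1.8, TopHat2 2.1.0, Cufflinks 2.2.1 and mm10, with no role given. The authors' fold changes and p-values in the same table were not used.

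Each comparison used the rows deposited for its own pair. Rows sharing a symbol were summed, and the members did not differ between pairs. Log2 ratios of (FPKM + 1) were computed, which understate the change of low genes. With 1 library per group no test was made, and depth is unknown. Alternatives were pseudocounts of 0.1 and 5, TPM, median centring, subtraction of a lowess trend with transcript GC content (GENCODE M21, found for 94.9% of expressed genes), the study's thresholds of 5.7 and 0.2, an FPKM of at least 1 in both libraries, and leaving out members listed at 0, the last chosen after seeing the data. The ratios and the trend were tested on simulated data, scored only on well-expressed genes and with planted changes larger than 2-fold. That test does not cover members of low FPKM or changes near 2-fold.

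Named genes were the members, *Rbpj*, list genes with an FPKM of at least 1 and at least 2-fold between genotypes, and the 3 genes nearest in profile to each member spanning at least 1 on the log2 scale. Some genes of the lists are not reported here. Other genes that illustrate a group were chosen after their values were seen. Lists covered other complement genes by role, C1q-related transcription factors and cell type markers. *Adgre1* was matched by its older symbol. Members and lists were chosen with earlier results of these data known. Positions are GENCODE M21 (GRCm38), and all 7 members overlapped their deposited positions. Python 3.11.15, numpy 2.4.6, pandas 2.3.3, statsmodels 0.14.6 and matplotlib 3.10.9 were used.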

Additional observations from a re-analysis of the deposited data

Results flagged for a closer look

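The genotype log2 ratios of *C1qb* and *Cfb* had opposite signs in the 2 subsets, each from 1 library per group, and the differences were not tested. The log2 ratio of *C1qb*, RBP-J-deficient over control, was 0.45 in Ly6Clo and -1.89 in Ly6Chi monocytes, a difference of 2.34. Read the other way, its log2 ratio of Ly6Clo over Ly6Chi was -2.00 in control mice and 0.34 after RBP-J loss, a difference of -2.34 that uses the same 4 values. The log2 ratio of *Cfb* between the genotypes was 0.97 in Ly6Clo and -0.12 in Ly6Chi monocytes, a difference of 1.09. In Ly6Chi monocytes *Cfb* was close to level, at 35.6 FPKM in the control and 32.8 in the RBP-J-deficient library, and its log2 ratio was -0.03 after the GC correction.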

How the results depend on the processing

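Of 212 values computed under alternatives for 36 results, 189 kept their direction and their side of 2-fold, or for counts stayed within 1.5 times. The other 23 follow, and the cause was not tested. No paired analysis was possible because each group holds 1 library, and for the same reason no library could be left out. TPM shifted every log2 ratio by a median of -0.29 for the genotypes in Ly6Clo, -0.10 in Ly6Chi, -0.01 for the subsets in control mice and -0.20 after RBP-J loss.

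For the genotypes in Ly6Clo monocytes, *C1qc* turned from 0.15 to -0.10 with TPM and *Cfp* from -0.29 to 0.07 with the GC correction, and *Cfb* reached 1.14 with a pseudocount of 0.1 and 1.13 with the GC correction. Members at least 2-fold higher went from 1 to 2 under both of these and to 0 at the study's thresholds. Members lower went from 1 to 0 with a pseudocount of 5, at the study's thresholds, with an FPKM of at least 1 in both libraries and without members listed at 0. In Ly6Chi monocytes, *C4b* reached 1.72 with a pseudocount of 0.1, which took the members higher from 0 to 1, and the study's thresholds took those lower from 1 to 0. For the subsets in control mice, *C1qa* went from 1.05 to 0.45 with a pseudocount of 5, which took the members higher in Ly6Clo from 1 to 0, as did the study's thresholds, and these took those lower from 4 to 1. In RBP-J-deficient mice, *Cfp* went from -1.14 to -0.84 with the GC correction, under which the members lower went from 3 to 1, and the study's thresholds left 0. There *C4b* reached -1.64 and the median of the members -1.16, from -0.44, with a pseudocount of 0.1. Since depth is unknown, least weight can be put on *C1qa*, *C4b* and other genes of low FPKM.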

Other observations

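Among 10240 genes that reached 1 FPKM in any library, those nearest to each member in profile were found by Euclidean distance between log2(FPKM + 1) centred over the 4 libraries. The nearest to *C3* were *Lgals1*, the gene of galectin-1, at a distance of 0.102, the cytokine gene *Il18* at 0.124 and the calcium-binding protein gene *S100a6* at 0.131. *Lgals1* had 97.0 FPKM in control Ly6Clo, 308 in RBP-J-deficient Ly6Clo, 319 in control Ly6Chi and 420 in RBP-J-deficient Ly6Chi monocytes, and *Il18* had 18.5, 55.6, 62.3 and 80.1. The nearest to *Cfb* were the lectin receptor gene *Clec4a2* at 0.224, *Klrb1f* at 0.256 and *S100a10* at 0.263. *Clec4a2* had 4.75, 9.29, 37.6 and 37.4 FPKM in the same order. The nearest to *Cfp* were *Sla* at 0.0877, *Gp1bb* at 0.102 and *Inf2* at 0.107. The nearest to *C1qb* were *Ppap2c* at 0.333, *Fggy* at 0.354 and *Ift57* at 0.364, and those nearest to *C1qa* were *Tmc8* at 0.0923, *Mfsd3* at 0.187 and *Gne* at 0.243. Neither *C1qa* nor *C1qc* was among the 3 nearest to *C1qb*. A profile over 4 single libraries says nothing of shared function or control.

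Most marker genes at least 2-fold apart between the genotypes are given here as log2 ratios, RBP-J-deficient over control. In Ly6Clo monocytes *Ccr2* had 2.98, *F13a1* 2.86 and *Ly6c2* 2.73 among the Ly6Chi markers, and *Nr4a1* had -3.22, *Ace* -2.55 and *Pou2f2* -1.16 among the Ly6Clo markers. The *Nr4a1* value rests on 1 library per group. By flow cytometry and qPCR, the paper found *Nr4a1* in Ly6Clo monocytes to be similar between the genotypes. Of the general monocyte markers *Csf1r* had -1.36 and *Lyz2* 1.35. Among the B cell markers *Cd22* had -3.15, *Cd79a* -2.23, *Ms4a1* -2.01 and *Cd79b* 1.24. *Retnlg* had 1.31, *Trem2* 1.65, *Hba-a2* -3.70, *Hbb-bt* -1.58, *Gp9* -1.72 and *Itga2b* -1.09, and *Hbb-bs* had 11.1 FPKM in control and 54.6 in the RBP-J-deficient library. *Nkg7* and *Ccr7*, at 1.02 and 1.43 FPKM in control Ly6Clo monocytes, were listed at 0 in the RBP-J-deficient library. In Ly6Chi monocytes *Cd300e* had 2.22, *Eno3* 1.89, *Spic* 1.16 and *Treml4* 1.03, and *Flt3*, *Gp9* and *Itga2b* had -1.11, -1.22 and -1.22. *Camp* and *Ngp*, at 5.52 and 4.87 FPKM in RBP-J-deficient Ly6Chi monocytes, were listed at 0 in the control library, and *Elane*, at 1.13 in control, was listed at 0 in the RBP-J-deficient library.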
